A study of Gallus gallus with 2 samples.

Results

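The epicardial marker genes WT1, TBX18, TCF21, ALDH1A2, KRT19, OGN and BNC1 were compared between 2 RNA-seq libraries from hearts of chicken embryos. They were found by their exact gene name, and all 7 were present among 13011 named genes, as 13 assembled transcripts of 27335. The control library came from embryos given saline. The other came from embryos given 2,2-azobis(2-amidinopropane) dihydrochloride, AAPH, which generates free radicals as it decays. AAPH (2.6 µmol in 100 µL) was placed in the air chamber when embryos were at stage 35 of the Hamburger-Hamilton series, with repeats every other day until day 10. All eggs were kept at 38 °C and 70% humidity, and hearts were taken at stage 37 (day 11). The AAPH schedule is the one the labels describe, and they give no volume or schedule for saline. Hearts came from embryos that survived, and the sources used here do not give the strain, the sex or how many hearts made up a library. Each group has 1 library, so no difference below has a replicate check, and no p-value, SD or standard error was computed.

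The epicardium is the mesothelial sheet that covers the heart. It forms from the proepicardium, a cluster of cells near the inflow of the heart tube. Some of its cells lose their epithelial contacts, enter the muscle wall and give rise to fibroblasts and to the smooth muscle of coronary vessels. The epicardium also makes retinoic acid and growth factors that act on the muscle below it. None of the 7 genes is restricted to this layer. WT1 is also used by the kidney and gonad, KRT19 by many simple epithelia, and OGN by matrix-producing connective tissue cells.

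Levels are given as FPKM (fragments per kilobase of transcript, scaled to the size of the library), summed over the transcripts of a gene, and where a pair of levels is given the saline library comes first. Ratios are log2((AAPH FPKM + 1)/(saline FPKM + 1)), so a negative value means a lower level in the AAPH library, and a gene was called higher or lower at 1.5-fold (log2 0.58 as a limit). The comparison covered 10106 genes whose FPKM averaged 1 or more over the libraries, which are called the tested genes. Of these, 2.73% were higher and 3.93% lower at 1.5-fold, and the median ratio was 0.0039. The summed FPKM was 1248089 in the saline library and 1042407 in the AAPH library, and the number of sequenced fragments is unknown. Dividing each library by its own sum (rescaling to TPM) shifted the tested genes' median by 0.23, and rescaling without haemoglobin and mitochondrial-genome genes moved it by 0.21. A ratio near 0 can thus change sign with the scaling, and a positive one can pass 1.5-fold by the scaling alone. After rescaling to TPM 9.36% of tested genes were higher at 1.5-fold and 1.7% lower, and 8.36% and 1.78% after the other rescaling. These shares and those as deposited are the background for the list counts below.

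Of the 7 genes, 6 passed the limit on mean FPKM and BNC1 did not. WT1 was called lower, the other 5 tested genes lay within 1.5-fold, and none was called higher. Among the 6, 5 ratios were below 0 and 1, that of ALDH1A2, was above 0, against 49.5% of all tested genes below 0. The median of the 6 was −0.33 as deposited. Rescaled to TPM it was −0.079, where the median of all tested genes was 0.24, 9.36% of them were higher at 1.5-fold and 1.7% lower, and 0 of the 6 marker genes were past the limit. The 6 genes had mean levels between 7.38 and 36.3 FPKM. In the 6010 tested genes between 5 and 50 FPKM the median ratio was 0.0077, the quartiles were −0.17 and 0.17, 2.01% were called higher and 2.9% lower. The FPKM of all 7 genes summed to 135.2 in the saline library and 117.3 in the AAPH library. Scaled to TPM-like units by each library's own total this was 108.3 and 112.5, so the direction of the sum depended on the scaling.

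**Figure D1:**
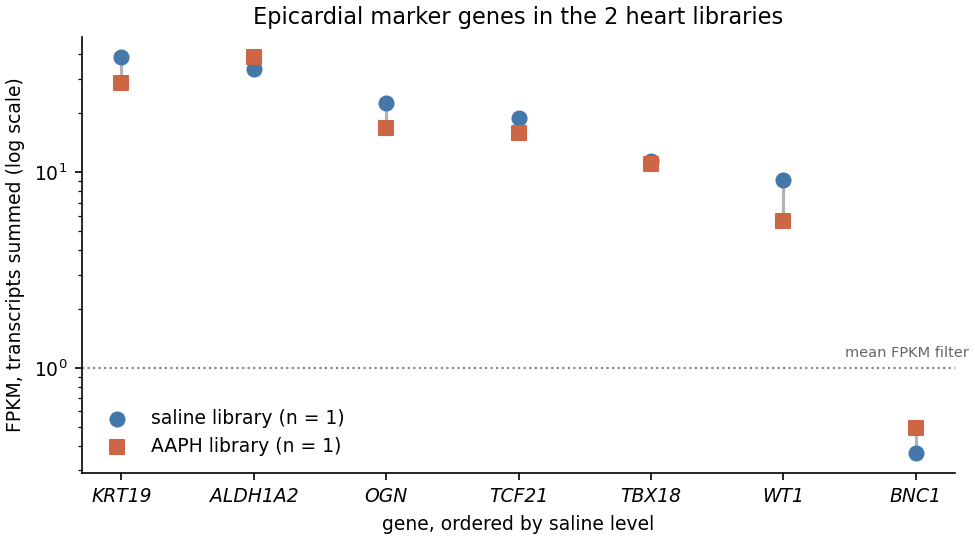
FPKM of each gene (log scale) in the saline library (circles) and the AAPH library (squares), 1 library each, ordered by the saline level. The order of the genes is the same in both libraries except that KRT19 (39.0 and 28.5) and ALDH1A2 (33.7 and 38.9) change places, and BNC1 lies under the dotted line at 1 FPKM.

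WT1, TBX18, TCF21 and BNC1 encode DNA-binding proteins. WT1 is a zinc finger protein that, in mice, is needed for the epicardium to form and to supply mesenchymal cells. WT1 was at 9.14 FPKM in the saline library and 5.62 in the AAPH library, a log2 ratio of −0.62. Of the 6010 genes between 5 and 50 FPKM, 2.50% had a lower ratio than WT1. After rescaling to TPM its ratio was −0.39, within 1.5-fold.

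The lower value of WT1 came from 1 of its 3 assembled transcripts. The first was at 3.52 FPKM in the saline library and 3.70 in the AAPH library, and the second at 1.56 and 1.92. The third was at 4.06 and 0.00049 FPKM, so its share of the gene went from 44.4% to 0.0087%. All 3 transcripts have the same nearest reference transcript, and the files do not say how they differ. Without the third transcript WT1 stood at 5.08 and 5.62 FPKM, a ratio of 0.12. On the first transcript alone, the one with the highest mean, the ratio was 0.056. Both values lie on the other side of 0 from the summed value. Such a pattern was frequent in the files. Of 20385 transcripts at 1 FPKM or more in at least 1 library, 2312 (11.3%) were under 0.01 FPKM in the other library, 1060 of them in the AAPH library and 1252 in the saline library. The cause of the near-zero value in WT1 was not tested.

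**Figure D2:**
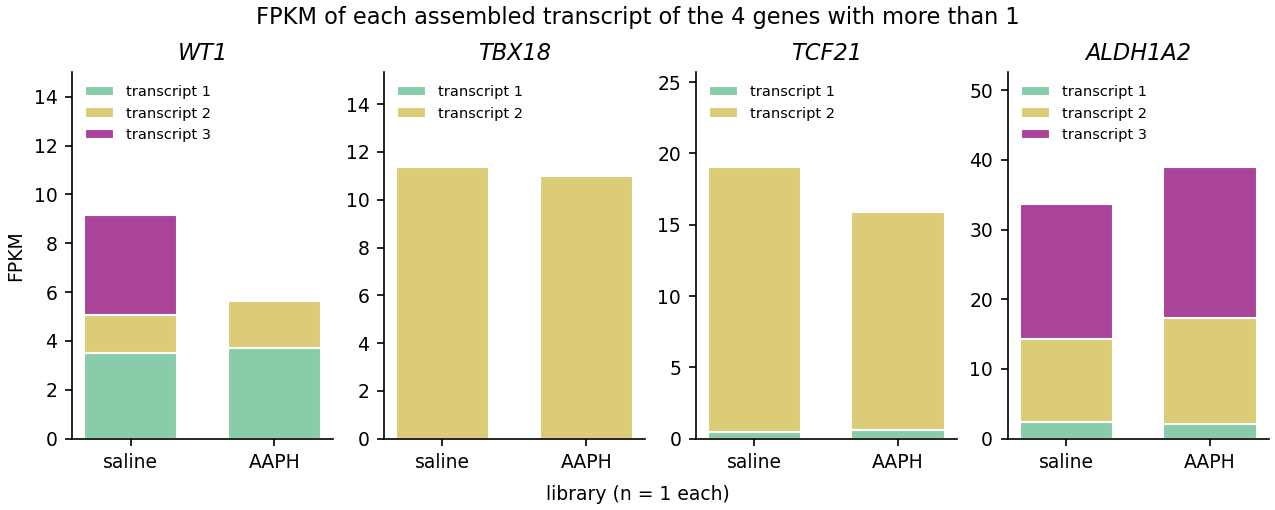
FPKM of each assembled transcript in the saline and the AAPH library (1 library each), stacked per gene, with 1 colour for each transcript and its own FPKM axis for each gene. The third transcript of WT1 holds 4.06 FPKM in the saline library and is not visible in the AAPH library, while the transcripts of TCF21 and ALDH1A2 keep similar shares, and the first transcript of TBX18 is too low to be seen.

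TBX18, a T-box factor of the epicardium and of the venous pole of the heart, was at 11.4 FPKM in the saline library and 11.0 in the AAPH library. Its ratio of −0.046 lay close to the median of all tested genes. It was 0.19 after rescaling to TPM and 0.17 after the other rescaling, where those medians were 0.24 and 0.22. Nearly all of it came from 1 transcript, at 11.4 and 11.0 FPKM, and the other was below 0.001 in both libraries. WT1 was at 0.805 of the level of TBX18 in the saline library and 0.512 in the AAPH library, on the summed FPKM. Without the third transcript of WT1 these level ratios were 0.447 and 0.512.

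TCF21, a basic helix-loop-helix factor that in mice is needed for the fibroblasts that come from the epicardium, was at 19.0 and 15.9 FPKM. Its ratio was −0.24, with 18.0% of the genes between 5 and 50 FPKM lower than it. It was 0.0021 after rescaling to TPM and −0.019 after the other rescaling, where the medians of all tested genes were 0.24 and 0.22. Its main transcript was at 18.6 and 15.3 FPKM and the other at 0.458 and 0.586, so the main one held 97.6% and 96.3% of the gene.

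BNC1, a zinc finger protein of epithelial and mesothelial cells, was the lowest of the 7, at 0.368 FPKM in the saline library and 0.492 in the AAPH library. In transcripts this low the FPKM values come in steps of whole fragments, and a fragment in the AAPH library counted for 1.05 times the FPKM of one in the saline library. Its ratio can be reached with 14 AAPH and 11 saline fragments, and with no smaller whole numbers. The plain ratio was 1.34, and its 95% interval by the exact binomial (Clopper-Pearson) method ran from 0.564 to 3.26. This interval covers counting error only, and no difference in BNC1 was detectable at this depth if it rests on these numbers.

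ALDH1A2 is the enzyme that makes retinoic acid from retinaldehyde and the main source of this signal in the embryonic epicardium. It was at 33.7 FPKM in the saline library and 38.9 in the AAPH library, a ratio of 0.20, and 79.2% of the genes between 5 and 50 FPKM had a lower ratio. It was 0.46 after rescaling to TPM and 0.43 after the other rescaling, still within 1.5-fold. All 3 of its transcripts were present in both libraries. The main one was at 19.4 and 21.6 FPKM, the second at 11.9 and 15.3 and the smallest at 2.46 and 2.09, so the main one held 57.5% and 55.4% of the gene. ALDH1A2 was 3.69 times the level of WT1 in the saline library and 6.93 times in the AAPH library, again on the summed FPKM. Without the third transcript of WT1 it was 6.64 times and 6.93 times.

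KRT19 is a type I keratin, an intermediate filament protein of simple epithelia such as the epicardial sheet. It had the highest level of the 7 in the saline library. It was at 39.0 FPKM there and 28.5 in the AAPH library, from 1 transcript, with a ratio of −0.44, and 6.66% of the genes between 5 and 50 FPKM were lower. After rescaling to TPM the ratio was −0.19. Whole fragments could not be read at this level, so its counting error is unknown. The current RefSeq gene table (assembly GRCg7b) lists KRT19 as a synonym of KRT24, so whether this gene corresponds to mammalian KRT19 was not settled. Type I keratins resemble each other, so reads can be shared between them and the values are uncertain. The keratins KRT14 (6.27 and 4.87 FPKM), KRT15 (2.996 and 3.23), KRT20 (0.621 and 0.580), KRT222 (0.268 and 0.844) and KRT12 (listed at 0 and 0.0794) were far lower. They were chosen after their values were seen, apart from KRT15.

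OGN, osteoglycin, is a secreted small leucine-rich proteoglycan of the matrix. It was at 22.6 FPKM in the saline library and 16.8 in the AAPH library, from 1 transcript, with a ratio of −0.41. Of the genes between 5 and 50 FPKM, 7.90% were lower. After rescaling to TPM the ratio was −0.16, and its counting error is unknown as well. KRT19 and OGN thus had ratios below 0 under both rescalings, inside 1.5-fold in each case.

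**Figure D3:**
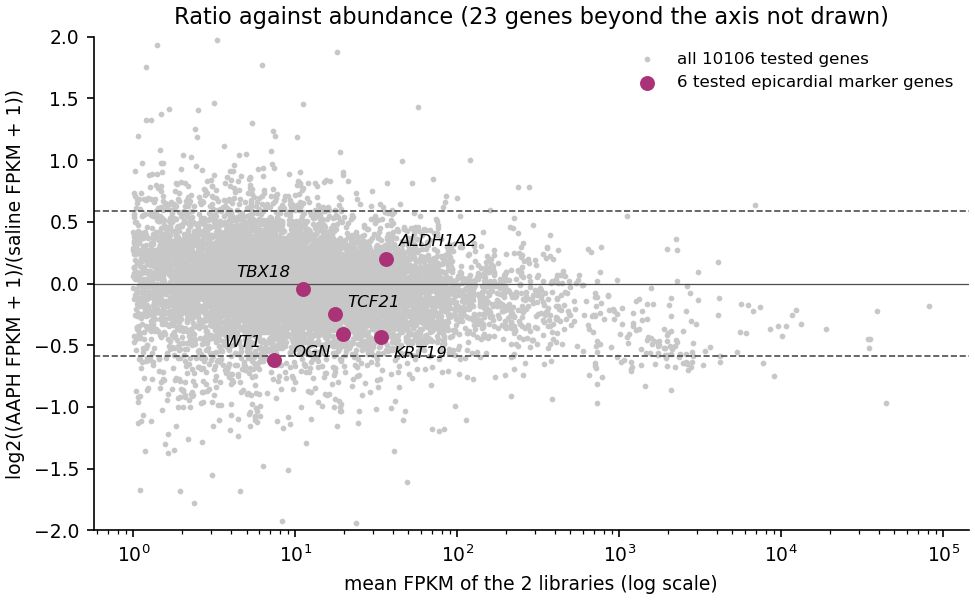
Log2 ratio of AAPH to saline against the mean FPKM (log scale) for the 10106 tested genes (grey) and the 6 tested epicardial marker genes (coloured), with dashed lines at 1.5-fold. WT1 (−0.62) lies just past the lower line and the other 5 lie between the lines, and 23 genes beyond the axis are not drawn.

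Most tested relatives of OGN had ratios on the other side of 0, and the difference was not tested. Of 8 tested genes in the list of its family, 6 had ratios above 0 and 1, asporin (ASPN), was lower at 1.5-fold, with a median of 0.21. DCN (decorin) was at 229 and 266 FPKM (ratio 0.22), LUM (lumican) at 79.3 and 99.1 (0.32), PRELP at 13.5 and 18.3 (0.42) and FMOD (fibromodulin) at 2.99 and 4.28 (0.40). PRELP and FMOD were higher at 1.5-fold under both rescalings, with ratios of 0.66 and 0.62 after rescaling to TPM. Of all tested genes 3.93% were lower as deposited, and 9.36% and 8.36% were higher under the 2 rescalings. ASPN was at 3.24 and 1.199 FPKM, a ratio of −0.95, and stayed lower at 1.5-fold under both rescalings. OMD (osteomodulin) and ECM2 lie near OGN on chromosome 12 in GRCg7b. OMD was listed at 0 and at 0.0225 FPKM, and ECM2 was at 5.45 and 4.56 (ratio −0.21, and 0.0019 after rescaling to TPM). OGN was at 0.0988 of the level of DCN in the saline library and 0.0631 in the AAPH library. DCN was at −0.031 when transcripts that were near 0 in 1 library were left out.

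The relatives of the transcription factors showed no call as deposited. Of 5 tested T-box genes, 0 were past 1.5-fold (median −0.099). TBX20, a factor of the muscle wall, was at 61.8 and 65.5 FPKM (0.083), and TBX5 was at 44.5 and 37.5 (−0.24, and 0.012 after rescaling to TPM). Of 7 tested basic helix-loop-helix genes, 0 were past 1.5-fold (median 0.021), and 1, TCF4, was higher under both rescalings. The shares of all tested genes higher there were 9.36% and 8.36%. TCF12, TCF3 and TCF4 are E proteins, which pair with factors of this class. TCF12 was at 83.6 and 84.8 FPKM and TCF3 at 20.8 and 22.8. On its highest transcript alone TCF12 had a ratio of 0.61, past 1.5-fold. TCF4 was at 1.69 and 2.87 FPKM, a ratio of 0.52 that became 0.72 and 0.70 under the rescalings and 0.048 on its highest transcript alone. HAND1 was at 56.1 and 40.3 FPKM, a ratio of −0.47.

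Other genes of the epicardium and mesothelium were mostly slightly lower in the AAPH library as deposited. Of 31 listed, 20 were found and 14 tested, with 0 past 1.5-fold, 9 ratios below 0 and a median of −0.21. The cardiomyocyte list below had 12 of 17 ratios below 0 and a median of −0.17, so this tilt was not particular to this list. Rescaled to TPM, 10 of the 14 ratios were above 0 and the median was 0.044. For all tested genes the median was then 0.24, so most of them were above 0 as well. The complement factor CFI was at 6.28 and 4.57 FPKM (−0.39), the nuclear receptor NR2F1 at 10.9 and 8.24 (−0.36), GATA5, a zinc finger factor of the heart, at 223 and 174 (−0.35) and the cadherin CDH3 at 31.4 and 25.1 (−0.31). PODXL, a sialomucin of mesothelium and endothelium, lay highest, at 20.4 and 23.8 (0.22). Several genes known from mature mammalian mesothelium were low in both libraries. MSLN (mesothelin) was at 0.627 and 0.612 FPKM, GPM6A at 0.288 and 0.277 and UPK1B at 0.131 and 0.137. LRRN4, also of this list, was not low, at 9.83 and 8.22 FPKM (−0.23, and 0.0021 after rescaling to TPM). RSPO1, a secreted enhancer of Wnt signalling chosen after its values were seen, was at 0.756 and 0.0723 FPKM. The smallest whole fragment numbers are 11 from saline and 1 from AAPH hearts, for a plain ratio of 0.0955 whose 95% counting limits are 0.0022 and 0.657. RSPO1 fell under the limit on mean FPKM, so it is not among the tested genes. Because of how it was chosen, its interval is not a test of a difference.

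Genes that make, carry, break down or bind retinoic acid gave 1 call each way as deposited. After either rescaling the calls in this list became 2 higher and 0 lower. The background shares were 2.73% called higher and 3.93% called lower as deposited, and 9.36% and 1.7% after rescaling to TPM. Of 19 listed, 14 were found and 9 tested, with a median of −0.11 (0.10 after rescaling to TPM). RBP7, a retinol-binding protein, was at 0.665 and 1.86 FPKM (0.78), from at least 3 saline and 8 AAPH fragments, with an interval of the plain ratio of 0.673 to 16.4. The receptor RXRG was at 1.53 and 0.657 FPKM (−0.61), from at least 22 saline and 9 AAPH fragments, with an interval of 0.174 to 0.972, and came within 1.5-fold when rescaled. RBP7 and RXRG were named because they passed 1.5-fold, and both intervals cover counting error only, with 1 library per group. RDH10, which makes the retinaldehyde that ALDH1A2 uses, was at 7.98 and 11.1 FPKM (0.43), and passed 1.5-fold under both rescalings. CYP26A1, which breaks retinoic acid down and is induced by it, was at 1.066 and 1.59 FPKM (0.32). CRABP2, which carries retinoic acid to its receptors, was at 45.2 and 45.6, and RARB, a receptor induced by retinoic acid, at 22.0 and 19.5 (−0.17, and 0.082 after rescaling to TPM).

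Signals that pass between epicardium and muscle showed 0 calls in 27 tested genes of 40 listed, with a median of 0.066. Of all tested genes only 2.73% were higher and 3.93% lower as deposited. VCAM1, the adhesion molecule that holds the epicardium to the muscle through integrin α4, was at 30.2 and 21.2 FPKM (−0.49, and −0.24 after rescaling to TPM). ITGA4, the gene of that integrin, was at 3.77 and 4.41 (0.18). TGFBR2 was at 6.68 and 8.46 FPKM (0.30), thrombospondin THBS1 at 8.74 and 11.2 (0.33) and WNT11 at 4.09 and 5.76 (0.41). The ratio of WNT11 was 0.63 and 0.61 under the rescalings, where it was the 1 gene of the list called higher, and −0.35 when transcripts near 0 in 1 library were left out. Among all tested genes 9.36% and 8.36% were higher under the 2 rescalings.

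In the list of epithelial to mesenchymal transition, 1 of 20 tested genes was higher and 0 lower. Of the 20 ratios, 16 were above 0, with a median of 0.12. Under both rescalings 3 were higher and 0 lower, where 9.36% and 8.36% of all tested genes were higher. The higher gene was S100A4, at 0.813 and 2.14 FPKM (0.79). The transcription factor ETS1 (11.4 and 17.5 FPKM, 0.58) lay just within 1.5-fold and passed it under both rescalings. The repressors SNAI2 (26.6 and 22.1 FPKM, −0.26) and SNAI1 (16.8 and 15.2, −0.13) were close in the libraries, and SNAI1 was at 0.11 after rescaling to TPM. ZEB1 (6.44 and 7.02 FPKM, 0.11), ZEB2 (15.6 and 16.4, 0.071) and TWIST1 (1.85 and 2.34, 0.23), of the same list, had ratios above 0. SNAI1, SNAI2, ZEB1, ZEB2 and TWIST1 were named after their values were seen.

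Fibroblasts and coronary smooth muscle are the cell types that the epicardium supplies. Of 16 tested fibroblast genes, 11 had ratios above 0, 1 was higher and 0 lower, with a median of 0.16. Among all tested genes, 49.5% had ratios below 0, 2.73% were higher and 3.93% lower. Rescaled to TPM, 13 of the 16 ratios were above 0 and 2 were higher, where 9.36% of all tested genes were higher. Most of all tested genes also had ratios above 0 after that rescaling, and their exact share is not given here. The list median was then 0.41, against 0.24 for all tested genes. DPT (dermatopontin, a matrix protein) was at 10.7 and 17.1 FPKM (0.64), FBLN2 (fibulin 2) at 35.9 and 49.2 (0.44, past 1.5-fold under both rescalings and at −0.44 on its highest transcript alone) and COL1A2 at 420 and 331 (−0.34). Of 12 tested genes of coronary smooth muscle and pericytes, 1 was lower and 0 higher, with a median of 0.0043. The lower gene was RGS5, a regulator of G protein signalling in pericytes, at 25.9 and 12.1 FPKM (−1.03), and it stayed lower under both rescalings. ABCC9, a subunit of a potassium channel, was at 10.1 and 15.7 FPKM (0.58). It was higher at 1.5-fold under both rescalings (0.83 and 0.81), and its ratio was 0.21 when transcripts near 0 in 1 library were left out. These lists share no gene with the 7 epicardial marker genes, but they overlap with other lists. The fibroblast list shares DCN and LUM with the family list of OGN, so their medians are not separate observations. It also shares PDGFRA with the list of signals and PRRX1 with the transition list. The difference between lists was not tested.

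**Figure D4:**
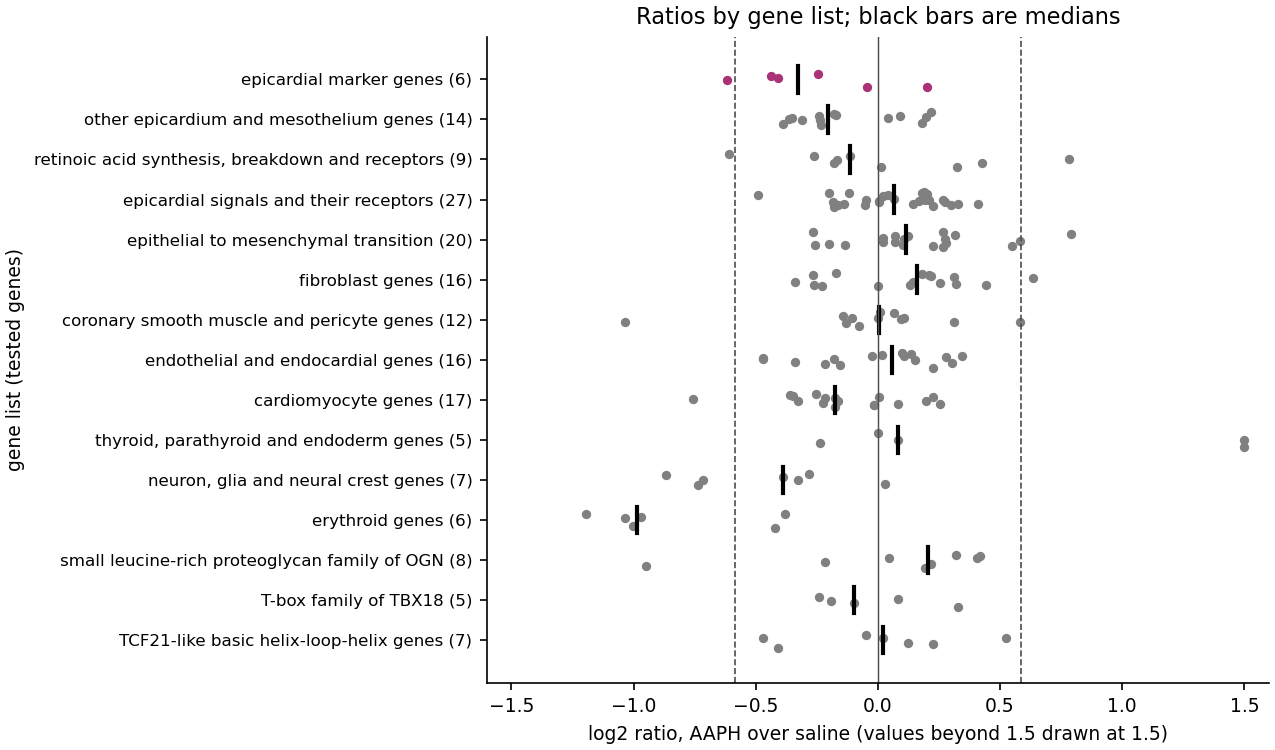
Log2 ratio of each tested gene in 15 lists, with the number of tested genes in parentheses, black bars at the medians and dashed lines at 1.5-fold, and values beyond 1.5 drawn at 1.5. The 6 epicardial marker genes have a median of −0.33, the erythroid list lies lower (−0.99), and the fibroblast list lies at 0.16.

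Marker lists of several other cell types held genes past 1.5-fold. Of all tested genes, 2.73% were higher and 3.93% lower as deposited, and 9.36% and 1.7% after rescaling to TPM. In bulk tissue, fewer cells of a type and less RNA per cell cannot be told apart. Of 12 listed erythroid genes 6 were found and tested, and 4 were lower, all of them haemoglobin genes (HBG1, HBE, HBE1 and HBZ). The same 4 were still lower after rescaling to TPM. HBG2, at 2267 and 1695 FPKM (−0.42), and EPB42 (−0.38), which is not a haemoglobin gene, lay within 1.5-fold. All 6 summed to 3450 FPKM in the saline library and 2293 in the AAPH library, most of it from HBG2. After rescaling to TPM the sums were 2764 and 2199. Of 7 tested genes of neurons, glia and neural crest, 3 were lower. Of these 3, STMN2 and GAP43 came within 1.5-fold under both rescalings and NEFM stayed lower. The 12 genes found summed to 179 and 133 FPKM, or 144 and 128 after rescaling to TPM. Most of that sum was TUBB3, at 135 and 103 FPKM (−0.39, within 1.5-fold). Genes of thyroid, parathyroid, thymus and other endoderm epithelium summed to 28.3 and 50.5 FPKM over the 15 found. In that list PTH, at 0.435 and 19.3 FPKM, and TG, at 0.116 and 4.97, were called higher, and 4 genes were listed at 0 in the saline library and 1 in the AAPH library. The epithelial adhesion gene EPCAM was at 4.82 and 4.83 FPKM and the cadherin CDH1 at 1.03 and 0.658. Cardiomyocyte genes summed to 49298 and 43063 FPKM over the 17 found, with TNNT2 at 5989 and 5342, and 1 of the 17, MYH7, was lower (−0.76). Rescaled to TPM the cardiomyocyte sum was 39499 and 41311, so its direction turned, and 13 of the 17 ratios were above 0. The median of the list was then 0.086 against 0.24 for all tested genes, most of which were above 0 as well. As deposited it was −0.17 against 0.0039, so it lay below that of all tested genes in both cases. MYH7 was at −0.50 after rescaling to TPM, within 1.5-fold. Endothelial and endocardial genes showed 0 calls in 16 as deposited, with 9 ratios above 0, 7 below 0 and a median of 0.056. EGFL7 and APLNR were both at −0.47 and TIE1 at 0.35. After rescaling to TPM 1 of the 16, TIE1, was higher (0.60). The part of these values in the values of the epicardial marker genes was not tested.

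**Figure D5:**
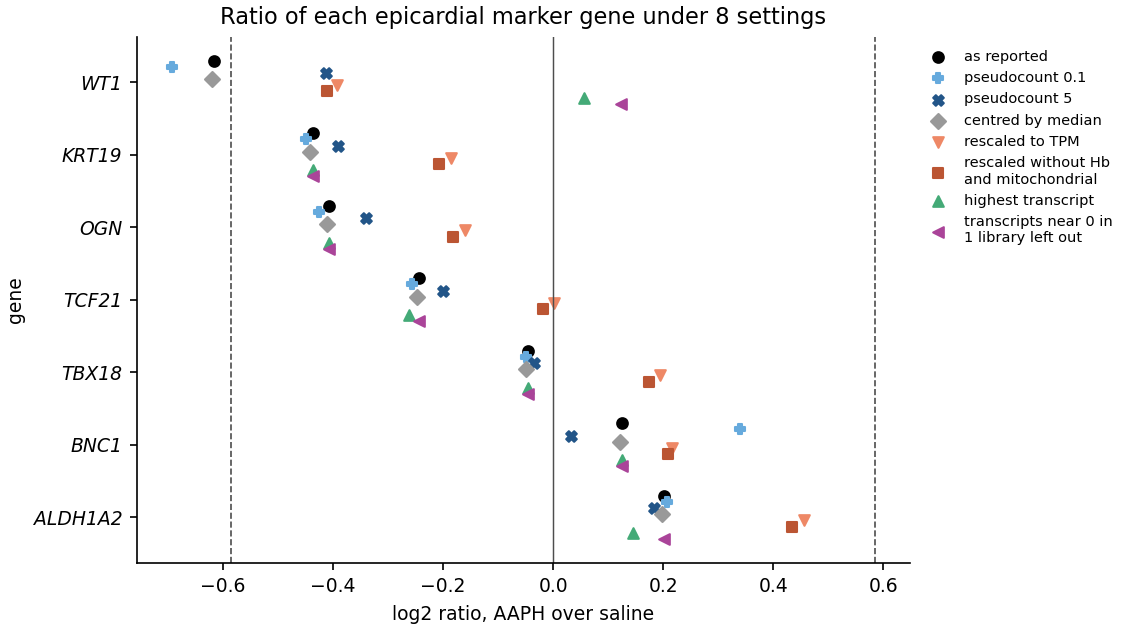
Log2 ratio of each of the 7 genes as reported and under 7 other settings, with dashed lines at 1.5-fold. WT1 moves from −0.62 to 0.056 on its highest transcript alone and to 0.12 without transcripts near 0 in 1 library. TBX18 and TCF21 reach 0 or above after rescaling to TPM, where the median of all tested genes is 0.24. KRT19 and OGN stay below 0 in all 8, but only the rescalings could have turned their sign.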

How the data were processed

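The submitters' processing notes name bcl2fastq, TopHat2 2.1.1, Cufflinks 2.2.1 and Cuffdiff, with neither genome build nor annotation given in the sources used here. Per the file headers, the authors deposited FPKM, 1 value per assembled transcript and library. The files hold no counts, so the absolute depth is unknown. Groups came from the labels' chemical entry.

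FPKM was summed by gene name. Another 1968 transcripts had no name and were not used (18.2% of saline and 20.6% of AAPH FPKM). A pseudocount of 1, a mean FPKM of 1 or more and a 1.5-fold limit were used. The 7 genes, 14 other lists, settings and naming rule (members past 1.5-fold, the 4 largest ratios of a list, and in the family lists also the 4 highest levels) were chosen with earlier results of these data known. Lists were matched by exact name. MSLN, GPM6A, UPK1B, LRRN4, PODXL, RSPO1, EPCAM, CDH1, CRABP2, RARB, ITGA4, TNNT2, OMD and ECM2 fall outside the rule. They were chosen after their values were seen. The result of 1 gene of the transition list is not reported here, and not every gene the rule allows is printed.

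Whole fragments were read from 805 transcripts that were alone at their locus and lay between 0.05 and 0.3 FPKM in the saline library. For 87.2% of them, the quotient of the libraries over 1.05 equalled a fraction of integers no larger than 10 (relative tolerance 2e-04). With integers up to 30, the share was 88.3% at 0.3 to 1 FPKM and 52.8% at 1 to 5 FPKM (7.16% and 7.66% with a factor 1.3% off), and 10.9% at 20 to 50 FPKM (6.79% with that factor), so no fragment numbers are given at such levels. RefSeq (GRCg7b) gave names and neighbours only. The software was Python (version 3.11.15) with pandas (2.3.3), numpy (2.4.6), matplotlib (3.10.9) and scipy (1.17.1). Calls on known fold changes and the reading of fragment numbers were tested on simulated data. The rescalings and the settings that choose transcripts were not part of that test.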

Additional observations from a re-analysis of the deposited data

How the results depend on the processing

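Without replicates no library can be left out, and no paired analysis was possible because each group has 1 library. KRT19, OGN, ALDH1A2 and BNC1 kept their direction and stayed within 1.5-fold under each setting tried, but few settings could have turned their sign. KRT19, OGN and BNC1 have 1 transcript, so the settings that choose transcripts left their ratios unchanged. A pseudocount cannot turn a sign, and centring by the median moved ratios by only 0.0039. The rescalings raise ratios, so of these genes they could turn only KRT19 and OGN. The ratio of WT1 was −0.41 with a pseudocount of 5, −0.39 after rescaling to TPM and −0.41 after rescaling to the total that leaves out haemoglobin and mitochondrial-genome genes, all within 1.5-fold. It was 0.056 on the transcript with the highest mean and 0.12 without transcripts under 0.01 FPKM in 1 library and at 1 or more in the other, a setting chosen after seeing the data. In these 5 settings 0 of the tested marker genes were lower. TBX18 was at 0.19 and 0.17 under the 2 rescalings and TCF21 at 0.0021 after rescaling to TPM. The medians of all tested genes were 0.24 and 0.22 under the 2 rescalings. The median of the 6 marker genes was −0.079 and −0.10 under the 2 rescalings, −0.15 on the highest transcript and −0.14 without transcripts near 0. Both rescalings raised the ratio of each of the 7 genes, since they scale the smaller total of the AAPH library up to that of the saline library. For the other changes the cause was not tested.

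Over all tested genes, 276 were higher and 397 lower. In the same order, the numbers were 505 and 551 with a pseudocount of 0.1, and 56 and 161 with one of 5. They were 134 and 246 with the limit on mean FPKM raised to 5 (7342 genes tested in place of 10106). After rescaling to TPM they were 946 and 172, and 845 and 180 after the other rescaling. They were 754 and 850 on the highest transcript, and 426 and 530 without transcripts near 0. Of 358 genes past 1.5-fold with more than 1 transcript, 234 kept their call on the highest transcript alone and 17 had the opposite sign. Under the 2 rescalings MSLN was at 0.091 and 0.081, SMTN at 0.11 and 0.088, TBX2 at 0.11 and 0.094 and TCF15 at 0.20 and 0.18. After rescaling to TPM, TBX3 was at 0.013, TBX5 at 0.012 and HHEX at 0.0089. On the highest transcript HHEX was at 0.16, FBLN2 at −0.44 and MYOCD at −0.66. Without transcripts near 0, DCN was at −0.031, TCF3 at −0.052 and WNT11 at −0.35.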
